A study of Mus musculus with 96 samples.

Results

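The imprinted Dlk1-Dio3 locus of mouse chromosome 12 carries one of the largest microRNA clusters of the mammalian genome, and 35 of its stem-loops (the hairpin precursors that are cut into mature microRNAs) were followed here in cortex among the 1187 stem-loops of the deposited tables. They were taken by miRBase accession from a list of stem-loops of this locus that pairs accessions with names. RefSeq gives 61 microRNA genes between Dlk1 and Dio3, of which 26 are not among the 35. How the list was drawn up is not given, and the 35 are called the cluster below. In mm10 they lay on the plus strand between positions 109585789 and 109743795, a span of 158.0 kb. The 9 on the Rtl1 side are mir-337, mir-540, mir-431, mir-433, mir-127 (MI0000154), mir-434 (MI0001526), mir-136, mir-341 and mir-370. The 26 of the mir-379 to mir-410 group are mir-379, mir-411 (MI0001163), mir-299a, mir-380, mir-323, mir-329, mir-494, mir-543, mir-495, mir-376c, mir-376b, mir-376a, mir-300, mir-381 (MI0000798), mir-487b, mir-539, mir-382, mir-134, mir-485, mir-154, mir-377, mir-541, mir-409, mir-412, mir-369 and mir-410. As a check of these names, the stem-loop length that the FPKM values imply equalled the RefSeq hairpin length for all 35.

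Small RNA was sequenced from 96 mice of the C57BL/6 strain, 4 females and 4 males in each of 12 groups. Knock-in mice were heterozygous, with 1 wild-type Htt allele and 1 allele that carries human HTT exon 1 with 20 (Q20), 50 (Q50), 92 (Q92) or 140 (Q140) CAG repeats, at 6 or 10 months of age. Wild-type (WT) mice came from the Q20 line and from the Q50 line at the same ages. Following the study, both WT groups and Q20 served as controls, and Q50, Q92 and Q140 are called expanded knock-in. Each repeat length is 1 mouse line, and Q92 and Q140 have no WT mice of their own line here, so that line and repeat length cannot be told apart for them. In the labels, mice of the Q20 and Q50 lines are housed with WT, and those of the Q92 and Q140 lines with their own genotype, while the methods of the study describe cages shared by heterozygous and WT mice without this exception.

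As background, genes of this locus are expressed from one parental chromosome. Dlk1, Rtl1 and Dio3 code for proteins and are expressed from the paternal copy, while the long RNAs Meg3, Rian and Mirg and the microRNAs come from the maternal copy, largely as one long transcription unit. The cluster is expressed mainly in the embryo, in the placenta and, after birth, in the brain, where neurons are its main source. A mature microRNA pairs through its seed, bases 2 to 8, with target messages and lowers their translation or stability.

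The annotation places the stem-loops in 4 settings. In GENCODE vM21, which uses the same assembly, mir-431, mir-433, mir-127, mir-434 and mir-136 lie opposite an exon of Rtl1, and microRNAs of this kind are known to pair fully with the paternal Rtl1 message and to direct its cleavage. The Rian intron holds 2 stem-loops, mir-341 and mir-370. Mirg holds 10, of which mir-134, mir-485, mir-377 and mir-410 overlap an exon and mir-382, mir-154, mir-541, mir-409, mir-412 and mir-369 do not. The other 18 lie in no GENCODE gene, genes of small RNAs left aside. Of these, mir-337 and mir-540 lie within the bounds of Rtl1 in RefSeq, from 109564900 to 109604418.

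RefSeq (GRCm38.p6) gives 66 mature sequences for the 35 stem-loops, with 63 distinct seeds, so that few members share a seed although they share a locus. The first set shown holds the microRNAs of the stem-loops whose levels the results turn on, with the seed in capitals. mir-127 and mir-434 are the most abundant. mir-381, mir-431, mir-341 and mir-329 are those that passed for CAG length at 6 months, calls that depended on the settings as given below.
miR-127-3p: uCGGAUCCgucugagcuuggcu
miR-434-3p: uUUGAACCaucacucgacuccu
miR-381-3p: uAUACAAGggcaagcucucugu
miR-431-5p: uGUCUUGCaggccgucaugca
miR-341-3p: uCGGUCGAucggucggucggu
miR-329-3p: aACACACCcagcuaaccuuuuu

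The second set holds sequences close enough to bear on the counts or on shared targets. miR-379-3p and miR-411-3p have the seed AUGUAAC in common and differ at U10C and U22C, counting from the 5′ end with the base of the first-named microRNA first. miR-376c-5p and miR-376b-5p share UGGAUAU and differ only at U19G. miR-300-3p and miR-381-3p differ at G4A, U21G and C22U, so that the seeds differ at 1 base. The mir-376 family is also known to be edited from A to inosine in brain, which can change its seed. The remaining shared seed, GGUUGUC, belongs to miR-494-5p and miR-410-5p.
miR-379-3p: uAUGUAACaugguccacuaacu
miR-411-3p: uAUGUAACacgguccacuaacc
miR-376c-5p: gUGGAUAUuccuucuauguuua
miR-376b-5p: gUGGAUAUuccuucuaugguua
miR-376a-3p: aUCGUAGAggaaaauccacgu
miR-376b-3p: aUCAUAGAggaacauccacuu
miR-300-3p: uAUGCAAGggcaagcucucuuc

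Library totals ran from 3698376 to 12142170 counts, with a median of 6390604. Screening by connectivity to the other libraries of the same age left 10 of 96 out of the fits, 3 of them Q92 females at 10 months. A set of 8 stem-loops outside the cluster led the first component of the control libraries, and its summed level was tried as a covariate after the data had been seen. A field of the descriptions that reads L1, L2 or L3, and that no label explains, was the batch term. At 10 months libraries carried L2 or L3, apart from 2 Q50 libraries with L1, and at 6 months L1 or L2. Markers of neurons, glia, blood and vessels were not analysed here, because the files give accessions without names, and fewer cells of a type and less microRNA per cell cannot be told apart in such samples.

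The cluster made up a large part of the cortical microRNA. Its 35 stem-loops took a median of 19.9% of the counts of a library, from 16.8% to 23.6% over the 96 libraries. mir-127 alone held a median of 11.1% of a library and had the highest FPKM of all stem-loops in the tables. mir-434 held 3.97%. Together these 2 neighbours took a median of 76.2% of the cluster's counts. Among the libraries kept, the share of the whole cluster was 19.6% (16.8% to 21.5%, n = 20) in expanded knock-in mice at 10 months, against 20.3% (17.6% to 23.6%, n = 22) at 6 months, and in controls 19.1% (17.0% to 21.0%, n = 23) at 10 months, against 20.7% (18.8% to 22.1%, n = 21) at 6 months, as median and range. The groups overlapped widely.

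Levels per length, in FPKM, covered several orders of magnitude, as the plot of levels along the locus shows. The median over libraries was 1592470 FPKM for mir-127, 421950 for mir-434, 120966 for mir-411, 104780 for mir-136, 83388 for mir-410 and 63425 for mir-541. mir-300 and mir-381 followed with 58351 and 55443 FPKM. At the other end stood mir-337 with 30.6 FPKM, mir-494 with 43.9, mir-539 with 165, mir-412 with 219, mir-376c with 464 and mir-299a with 601. The other 21 members lay between 1469 FPKM (mir-134) and 16711 FPKM (mir-369). Neighbours could differ widely, and mir-127 lies next to mir-433, which had 4606 FPKM. All 35 members passed the low-count filter of every fit in the main design, though mir-337 had a median of only 18.9 counts and mir-494 of 22 counts. Counts of mir-337, mir-136, mir-376c, mir-376b, mir-300 and mir-381 were not whole numbers in at least 84 of 96 libraries. Any decimal part was counted, with no tolerance. How these fractions arose is not stated, so that the values of these 6 are uncertain.

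**Figure D1:**
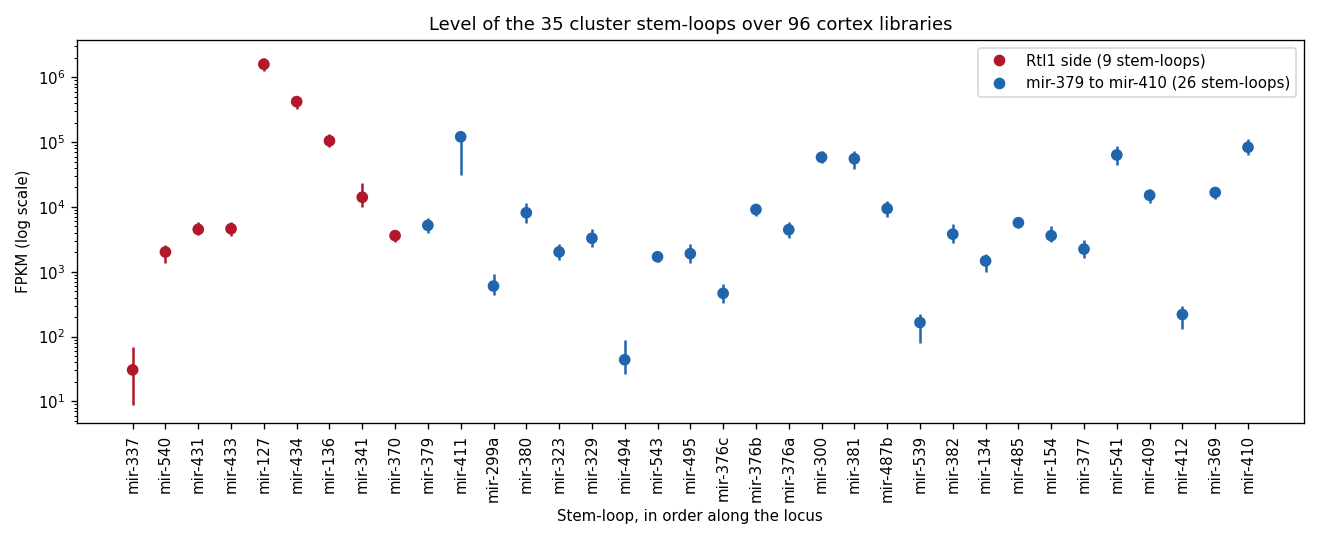
Level of each of the 35 stem-loops in FPKM on a log axis, in order along the locus; points are medians over 96 libraries, lines run from the lowest to the highest library, and colour gives the 2 position groups. mir-127 (1592470 FPKM) and mir-434 (421950 FPKM) stand highest, mir-337 (30.6 FPKM) and mir-494 (43.9 FPKM) lowest, and mir-411 has a long line downwards.

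Between-group levels of the 3 most abundant members are given in CPM (counts per 1000000 counts of the library, after TMM normalization) as median with lowest and highest library among those kept in the fits. For mir-127 at 10 months these were 98574 (91527 to 103496) in WT mice of the Q20 line, 101072 (86074 to 104233) in WT mice of the Q50 line, 97996 (89115 to 108881) in Q20, 103332 (89815 to 111159) in Q50, 91709 (84875 to 93634) in Q92 and 104793 (87643 to 110204) in Q140. At 6 months they were 122420 (107871 to 132586) in WT mice of the Q20 line, 123591 (122194 to 134175) in WT mice of the Q50 line, 124078 (112106 to 127376) in Q20, 123427 (103074 to 128794) in Q50, 123668 (111286 to 147012) in Q92 and 121716 (111078 to 132723) in Q140. The median of mir-127 was lower at 10 months than at 6 months in every group, and the genotypes of one age overlapped. For mir-434, its neighbour opposite Rtl1, the values at 10 months were 44573 (40515 to 48356) in WT mice of the Q20 line, 39415 (38313 to 41955) in WT mice of the Q50 line, 38873 (37054 to 43325) in Q20, 40783 (33437 to 46182) in Q50, 42026 (38934 to 43019) in Q92 and 44530 (40429 to 47405) in Q140. The 6-month values were 38722 (36692 to 42150) in WT mice of the Q20 line, 37230 (35656 to 39448) in WT mice of the Q50 line, 37275 (34679 to 44678) in Q20, 36703 (34886 to 38426) in Q50, 42902 (37776 to 46733) in Q92 and 38515 (37292 to 40598) in Q140. Here the ranges of all genotypes overlapped within an age.

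mir-411 stood apart from the other abundant members by a few libraries with low values. Its 10-month levels were 9719 (4837 to 10588) in WT mice of the Q20 line, 9959 (8859 to 10239) in WT mice of the Q50 line, 8757 (2817 to 9859.7) in Q20, 9629.8 (8843 to 9979) in Q50, 9305 (7359 to 9757) in Q92 and 9471 (3987 to 9756) in Q140, and its 6-month levels 10566 (4466 to 10776) in WT mice of the Q20 line, 10660 (4699.9 to 12064) in WT mice of the Q50 line, 10622 (5279 to 11659) in Q20, 10592 (9482 to 10950) in Q50, 10788 (10096 to 11851) in Q92 and 10655 (10313 to 11055) in Q140. Group medians were close, while single libraries of several groups fell to under 0.5 of theirs. Over all 96 libraries, 11 lay under 0.7 of their own group's median, spread over 8 groups, with 5 at 10 months and 6 at 6 months, and 4 of the 11 were among the 10 libraries left out. The lowest stood at 0.249 of its group's median. Of the other members only mir-337, with its low counts, had as many such libraries (18), and the neighbours mir-379 and mir-299a had 0. The within-group SD of mir-411 was 0.35 on the log2 scale, against 0.09 for mir-127 and mir-434. What moved with these low values was not tested.

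The 3 least abundant members varied more between libraries. mir-539 had 12.1 (9.21 to 14.0) in WT mice of the Q20 line, 11.9 (9.32 to 13.2) in WT mice of the Q50 line, 14.9 (11.7 to 15.7) in Q20, 13.0 (11.5 to 14.4) in Q50, 13.3 (9.84 to 14.5) in Q92 and 14.3 (10.8 to 14.9) in Q140 CPM at 10 months. At 6 months it had 12.4 (10.4 to 13.8) in WT mice of the Q20 line, 11.7 (6.31 to 14.7) in WT mice of the Q50 line, 10.9 (8.67 to 13.1) in Q20, 10.8 (8.18 to 12.8) in Q50, 10.9 (8.14 to 13.6) in Q92 and 10.1 (8.79 to 13.6) in Q140 CPM. All these groups overlapped. mir-494 had 4.54 (3.68 to 6.68) in WT mice of the Q20 line, 4.43 (2.23 to 5.90) in WT mice of the Q50 line, 4.54 (3.64 to 5.01) in Q20, 3.95 (2.45 to 7.14) in Q50, 3.90 (2.79 to 4.25) in Q92 and 4.67 (3.72 to 5.51) in Q140 CPM at 10 months and 2.88 (2.40 to 4.37) in WT mice of the Q20 line, 3.80 (2.86 to 4.33) in WT mice of the Q50 line, 2.72 (2.54 to 3.88) in Q20, 3.7 (3.03 to 3.92) in Q50, 2.99 (2.61 to 3.67) in Q92 and 3.15 (2.26 to 4.99) in Q140 CPM at 6 months. mir-337, the first of the locus, had 2.68 (1.89 to 6.08) in WT mice of the Q20 line, 3.59 (1.71 to 5.46) in WT mice of the Q50 line, 3.28 (1.17 to 6.07) in Q20, 2.33 (1.41 to 3.79) in Q50, 2.15 (1.54 to 2.87) in Q92 and 3.51 (2.13 to 5.28) in Q140 CPM at 10 months, and 3.68 (1.49 to 4.20) in WT mice of the Q20 line, 1.98 (0.89 to 3.7) in WT mice of the Q50 line, 3.40 (1.29 to 5.58) in Q20, 2.58 (2.06 to 3.82) in Q50, 2.86 (2.11 to 4.29) in Q92 and 3.28 (2.09 to 6.03) in Q140 CPM at 6 months. At levels this low these ranges hold much counting error, and a difference between groups was not detectable at this depth for mir-337.

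More members passed the test between ages than between genotypes. Comparing 10 with 6 months by the quasi-likelihood test of edgeR, with the false discovery rate (FDR) taken over every stem-loop in the fit and called under 0.05, 22 of 35 members passed in expanded knock-in mice (20 against 22 libraries), 14 higher and 8 lower at 10 months. Of all 420 stem-loops tested, 41.7% passed, 23.1% higher and 18.6% lower. In controls (23 against 21 libraries) 13 of 35 passed, 6 higher and 7 lower, where 34.3% of all 423 stem-loops passed, 17% higher and 17.3% lower. The members' share was therefore near the background in controls. In expanded knock-in mice it was 62.9%, above the background share, a difference for which no test was run. The background includes many stem-loops of low count. Once those averaging under 10 CPM were dropped, 66.7% of 33 members passed in these mice, beside 50.8% of all 309. The same cut gave 42.4% of members in controls, beside 43.9% of all. Whether the difference depends on abundance was not tested. The median change of the members was 0.08 in expanded knock-in mice and 0.00 in controls on the log2 scale, beside 0.02 and -0.01 over all stem-loops tested, so that the cluster did not move as a block in either set of mice.

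Part of these members passed in both sets of mice, which share no library. 5 members passed as higher and 6 as lower in both, and none passed in opposite directions. These 11 were 50% of the calls in expanded knock-in mice and 84.6% of the calls in controls. The same overlap was not computed over all stem-loops, so that it is not shown to be particular to the cluster. The sign of the change was shared by 26 of 35 members (74.3%), close to the 77.2% over all 417 stem-loops tested in both. Across the 35 members the changes correlated with r = 0.81, across all stem-loops with r = 0.73, given as a description since members of one library are not independent. The common risers were mir-376a, mir-329, mir-377, mir-495 and mir-376c, and the common fallers mir-127, mir-379, mir-134, mir-412, mir-540 and mir-541.

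Among the Rtl1-side members, mir-127 fell most clearly. It had 84875, 101110 and 111159 CPM at 10 months, against 103074, 121970 and 147012 CPM at 6 months in expanded knock-in mice (lowest, median and highest), a log2 change of -0.27 ± 0.04 (SE, edgeR FDR 9.73e-08). Controls had 86074, 100387 and 108881 CPM at 10 months, against 107871, 123740 and 134175 CPM at 6 months, a log2 change of -0.36 ± 0.03 (edgeR FDR 1.71e-11). All but 1 of the 23 control libraries of 10 months lay under the lowest of 6 months, while expanded knock-in libraries overlapped more, with 11 of 20 under it. mir-540 fell in both sets too, by 0.22 and 0.26. In expanded knock-in mice mir-370 fell while mir-434, mir-136 and mir-341 rose, and in controls mir-431 fell. Of the 9 Rtl1-side members, 3 rose and 3 fell in expanded knock-in mice, and 0 rose and 3 fell in controls.

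In the mir-379 to mir-410 group 11 of 26 members rose and 5 fell in expanded knock-in mice, and 6 rose and 4 fell in controls. mir-376a rose in both. It had 307, 341 and 378 CPM at 10 months, against 235, 273 and 344 CPM at 6 months in expanded knock-in mice, a log2 change of 0.37 ± 0.04 (edgeR FDR 2.67e-10), and all 20 older libraries were above the younger median. In controls it had 280.2, 339 and 379.6 CPM at 10 months, against 247, 277 and 317 CPM at 6 months, a change of 0.32 ± 0.04 (edgeR FDR 2.85e-09). mir-329, one of the members known to be induced by activity in rat neurons, had 319, 349 and 388 CPM at 10 months, against 274, 302 and 346 CPM at 6 months in expanded knock-in mice, a change of 0.22 ± 0.04 (edgeR FDR 3.83e-06). Its control libraries had 319, 345 and 436 CPM at 10 months, against 250.1, 283 and 331 CPM at 6 months, a change of 0.36 ± 0.04 (edgeR FDR 5.50e-09). Of the 23 older control libraries, 20 lay above all younger ones for mir-376a and 18 for mir-329.

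Further risers followed in each set. In expanded knock-in mice mir-495 had 109, 134 and 146 CPM at 10 months, against 90.4, 107 and 124 CPM at 6 months, a log2 change of 0.29 ± 0.05 (edgeR FDR 1.94e-06). mir-381 had 3830.1, 4436 and 5199 CPM at 10 months, against 3176, 3628 and 4195 CPM at 6 months there, a change of 0.26 ± 0.04 (edgeR FDR 4.85e-06). In controls its change was 0.06 ± 0.05 and did not pass (edgeR FDR 0.357). Among the controls mir-377 had 139, 162 and 207 CPM at 10 months, against 111, 143 and 181 CPM at 6 months, a change of 0.31 ± 0.06 (edgeR FDR 4.49e-05). mir-494 had 2.23, 4.43 and 6.68 CPM at 10 months, against 2.40, 2.95 and 4.37 CPM at 6 months in controls, a change of 0.58 ± 0.14 from few counts (edgeR FDR 0.000792).

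Of the fallers of this group, mir-541 stood first in expanded knock-in mice. mir-541 had 4242, 5067 and 6353 CPM at 10 months, against 5636, 6582 and 8221 CPM at 6 months in expanded knock-in mice, a log2 change of -0.42 ± 0.06 (edgeR FDR 9.32e-07), with 18 of 20 older libraries below all younger ones. mir-379, the first stem-loop of the group, had 255, 319.7 and 341 CPM at 10 months, against 347, 377 and 462 CPM at 6 months in the same mice, a change of -0.28 ± 0.04 (edgeR FDR 9.64e-07), and all 20 older libraries lay below all younger ones. In controls mir-379 had 266, 325 and 362 CPM at 10 months, against 322, 372 and 440.5 CPM at 6 months, a change of -0.29 ± 0.04 (edgeR FDR 6.27e-07). mir-134, which in rat neurons limits dendritic spine size by repressing Limk1, had 80.3, 91.6 and 105 CPM at 10 months, against 83.5, 115 and 133 CPM at 6 months in expanded knock-in mice, a change of -0.29 ± 0.05 (edgeR FDR 2.54e-05). Its control libraries had 69.6, 90.8 and 118 CPM at 10 months, against 99.5, 118 and 134 CPM at 6 months, a change of -0.38 ± 0.06 (edgeR FDR 3.46e-06). mir-412 had 11.8, 14.6 and 17.7 CPM at 10 months, against 16.6, 19.1 and 24.0 CPM at 6 months in controls, a change of -0.45 ± 0.07 (edgeR FDR 5.73e-07).

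**Figure D2:**
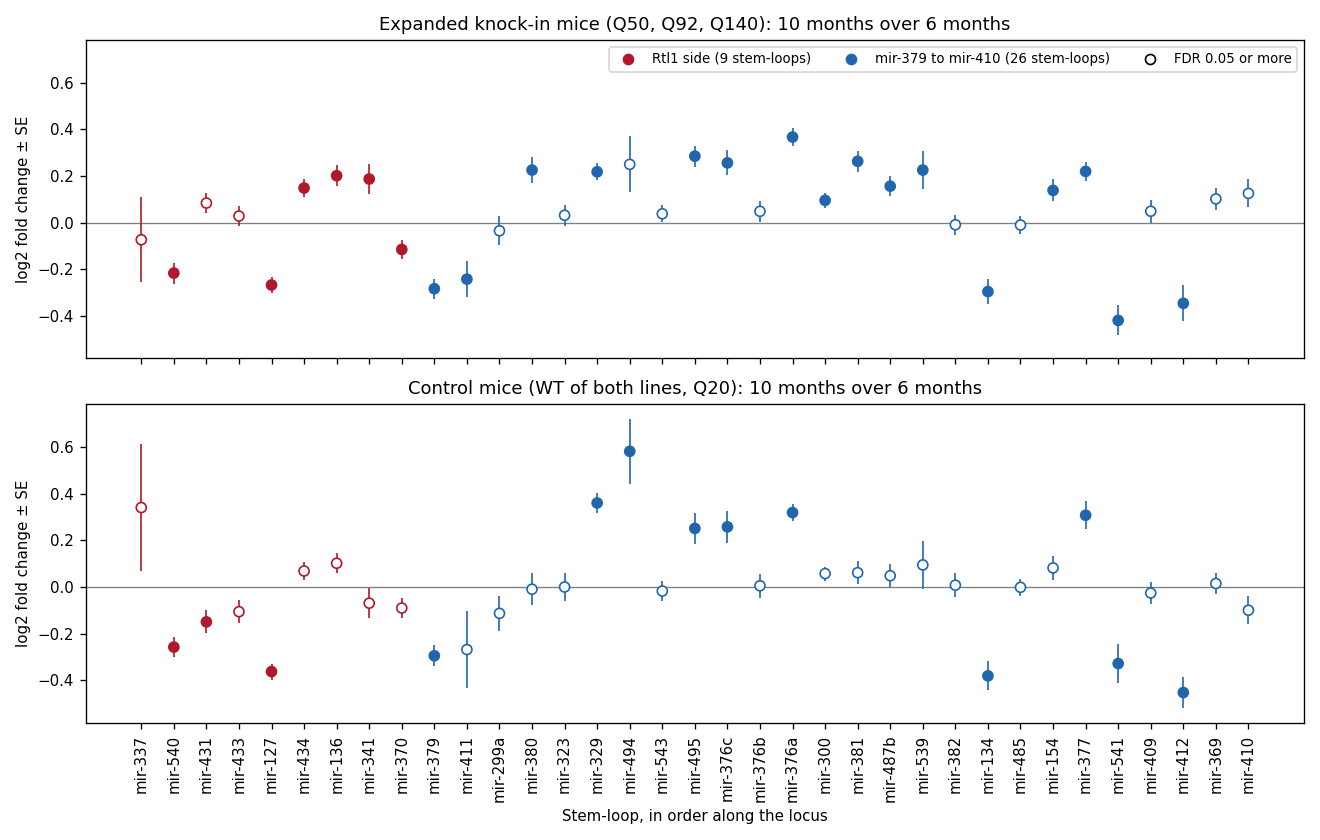
Log2 fold change of each stem-loop at 10 over 6 months (± SE) in expanded knock-in mice (top) and controls (bottom), in order along the locus; filled points passed FDR 0.05 in edgeR. Neighbours go both ways, as mir-127 (-0.27 and -0.36) beside mir-434 (0.15 and 0.07), and mir-376a, mir-329 and mir-377 lie above 0 while mir-379, mir-134, mir-541 and mir-412 lie below 0 in both panels.

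A pair of properties of the stem-loops can be set beside these changes. GC content of the hairpins, which ran from 29.1% to 61.2%, correlated with the age change across the 35 members with r = -0.53 in expanded knock-in mice and r = -0.57 in controls, so that GC-rich hairpins tended to be lower at 10 months. Log2 FPKM correlated with r = -0.10 and r = -0.37. Members share libraries, and no p is given. Neither correlation was computed over all stem-loops, so that neither is shown to be particular to the cluster. Whether the libraries of the 2 ages were prepared together is not given in the sources used here, and age cannot be told apart from such a difference. In the library descriptions the leading numbers form a separate run at each age, without overlap. Whether L2 or L1 stands for the same batch at both ages is not given either, and some full codes of this field recur at both ages for different mice. Neither the L covariate of the age fits nor a comparison within L2 or L1 can therefore be taken to hold batch fixed. Among libraries that read L2, which occur at both ages, 18 of 35 members passed in expanded knock-in mice, 11 higher and 7 lower. This stands beside 35.4% of all 415 stem-loops. In controls 13 passed, 6 higher and 7 lower, beside 32% of all 425. L1 held only 2 libraries of 10 months, both Q50 males, against 13 of 6 months in expanded knock-in mice. There 2 members passed, beside 7.88% of all 457 stem-loops, and mir-127 had -0.11 ± 0.08 there (edgeR FDR 0.475) against -0.31 ± 0.05 within L2.

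For CAG length, few members moved and the changes were small. At 6 months, with repeat number as a numeric variable over all libraries of that age, 4 of 35 members passed in edgeR, 1 higher and 3 lower with longer repeats. This is 11.4% of the members, beside 13.6% of all 447 stem-loops tested (4.92% higher and 8.72% lower), so that the cluster's share was near the background. The 3 that fell were mir-381, with a slope of -0.15 ± 0.03 on the log2 scale per 100 repeats (SE, edgeR FDR 0.00169), mir-431 with -0.11 ± 0.03 (edgeR FDR 0.0159) and mir-341 with -0.12 ± 0.04 (edgeR FDR 0.0385). mir-329 rose by 0.09 ± 0.03 (edgeR FDR 0.0471), a call that passed in 5 of 12 alternatives and was lost in 7, with an FDR of up to 0.617. The other 31 members did not pass, and the median slope of the 35 was 0.00.

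mir-381, like mir-329 a member needed for dendrite growth in rat neurons, had at 6 months 4180.4 (3723 to 4796) in WT mice of the Q20 line, 3828 (3616 to 4425) in WT mice of the Q50 line, 4079 (3777 to 4649) in Q20, 3849 (3392 to 4195) in Q50, 3595 (3184 to 4159) in Q92 and 3563 (3176 to 4019) in Q140 CPM. The libraries of the longest repeats lay low and overlapped those of the controls. mir-431, opposite Rtl1, had 447 (417 to 480.3) in WT mice of the Q20 line, 417 (397 to 449.7) in WT mice of the Q50 line, 432 (359 to 482) in Q20, 391 (353 to 444) in Q50, 377 (365 to 467) in Q92 and 393 (364 to 433) in Q140 CPM. mir-341 in the Rian intron had 1360.2 (1159 to 1617) in WT mice of the Q20 line, 1365 (1225 to 1683) in WT mice of the Q50 line, 1316 (1045 to 1688) in Q20, 1297 (1138 to 1471) in Q50, 1146 (1111 to 1452) in Q92 and 1214 (1067 to 1482) in Q140 CPM. These 3 showed lower medians in all expanded groups than in WT mice of the Q20 line, with wide overlap. Beside WT mice of its own line, Q50 was not lower for mir-381 (3849 against 3828 CPM). It was lower there for mir-431 (391 against 417 CPM) and mir-341 (1297 against 1365 CPM). mir-329 had 278 (267 to 313) in WT mice of the Q20 line, 285 (250.1 to 302) in WT mice of the Q50 line, 281 (252 to 331) in Q20, 298 (274 to 310.0) in Q50, 308 (283 to 346) in Q92 and 298 (287 to 331) in Q140 CPM, and here the expanded groups had the higher medians.

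These calls depended on the libraries, covariates and settings, and the share of all stem-loops called moved with them. The call was lost in 2 of 12 alternatives for mir-381, in 3 for mir-431 and in 5 for mir-341. Within L1 the slope of mir-381 was -0.22 ± 0.04 (edgeR FDR 0.00126) and within L2 it was -0.08 ± 0.06 (edgeR FDR 0.646), in the same direction. Within L1 mir-381 alone passed, beside 7.32% of all 451 stem-loops, and within L2 no member, beside 0.658% of all 456. With the co-varying set as a covariate no member passed, beside 1.79% of all 447, and the slope of mir-381 was -0.12 (edgeR FDR 0.0949). Without the L field 2 members passed, both lower, beside 12.3%.

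**Figure D3:**
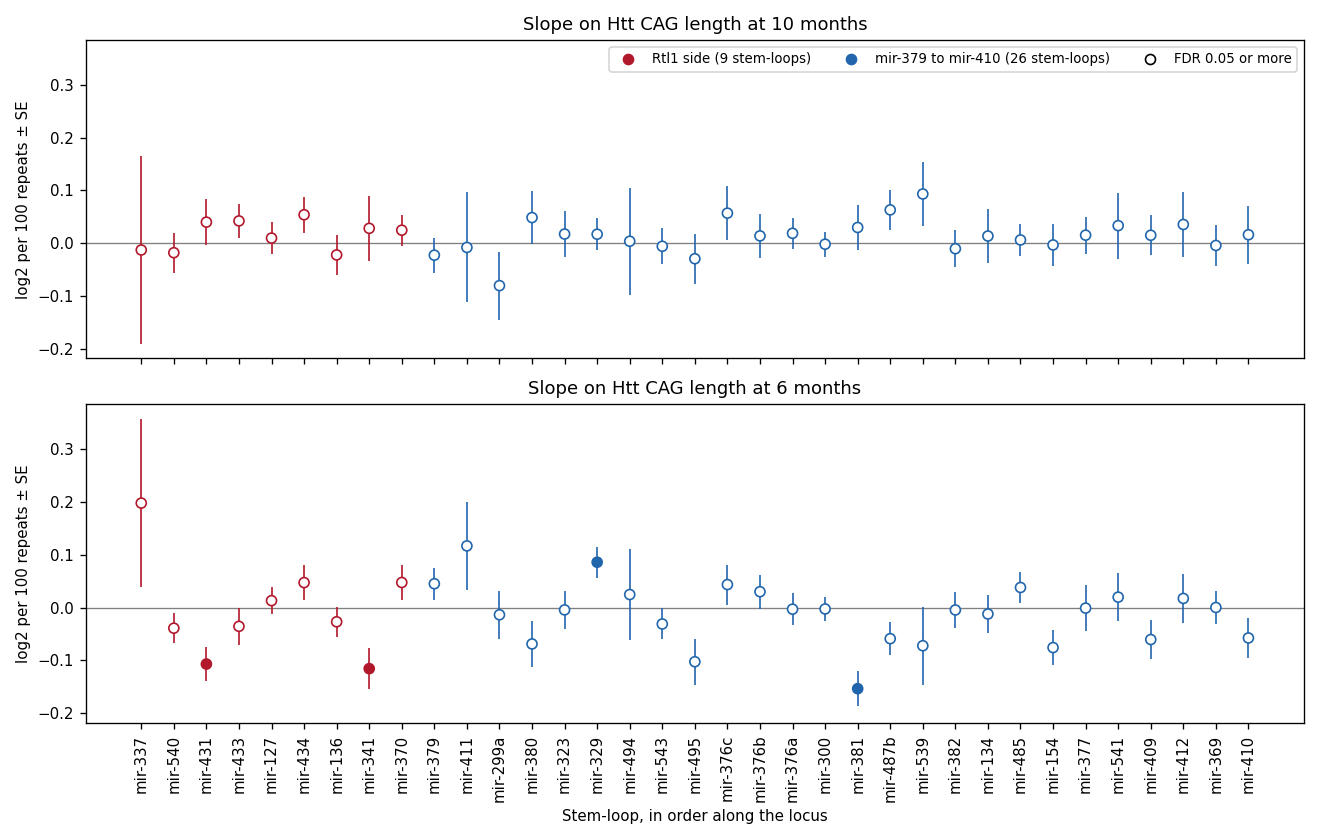
Slope of each stem-loop on Htt CAG length in log2 units per 100 repeats (± SE) at 10 months (top) and 6 months (bottom), in order along the locus; filled points passed FDR 0.05 in edgeR. At 10 months no point is filled, and at 6 months mir-381 (-0.15), mir-341 (-0.12) and mir-431 (-0.11) lie below 0 and mir-329 (0.09) above it.

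Compared as groups at 6 months, Q140 differed from controls in 1 of 35 members, mir-381, which was lower. This is 2.86% of the members, beside 2.09% of all 431 stem-loops (0.696% higher and 1.39% lower). mir-381 had 3176, 3563 and 4019 CPM (lowest, median and highest) in Q140, against 3616, 4088 and 4796 CPM in controls, a log2 change of -0.19 ± 0.05 (SE, 8 against 21 libraries, edgeR FDR 0.0175). All 8 Q140 libraries lay below the control median, and the ranges overlapped. The change was -0.23 ± 0.05 within L1 (edgeR FDR 0.0893) and -0.13 ± 0.08 within L2 (edgeR FDR 0.774), and with WT mice alone as controls the FDR in edgeR was 0.0692. mir-381 is one of the members with fractional counts, so that its value is uncertain.

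In Q92 at 6 months 2 members passed, 1 in each direction, or 5.71% beside 13% of all 432 stem-loops (5.56% higher and 7.41% lower). mir-434 was higher, with 37776, 42902 and 46733 CPM in Q92, against 34679, 37573 and 44678 CPM in controls, a change of 0.16 ± 0.04 (7 against 21 libraries, edgeR FDR 0.0117), and all 7 Q92 libraries lay above the control median. mir-381 was lower, with 3184, 3595 and 4159 CPM in Q92, against the same controls, a change of -0.15 ± 0.05 (edgeR FDR 0.0467), with 5 of 7 below the control median. Both ranges overlapped those of the controls. Q140 and Q92 were set against the same control libraries, so that their agreement on mir-381 is not independent. Within L1 the change of mir-434 was 0.10 ± 0.04 (edgeR FDR 0.245) and within L2 0.21 ± 0.07 (edgeR FDR 0.282). For mir-381 the change was -0.23 ± 0.05 within L1 (edgeR FDR 0.0425) and -0.06 ± 0.09 within L2 (edgeR FDR 0.852), and its call was lost in 5 of 12 alternatives. With no library screened out 5 members passed, 2 higher and 3 lower, beside 18.7% of all 433 stem-loops.

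**Figure D4:**
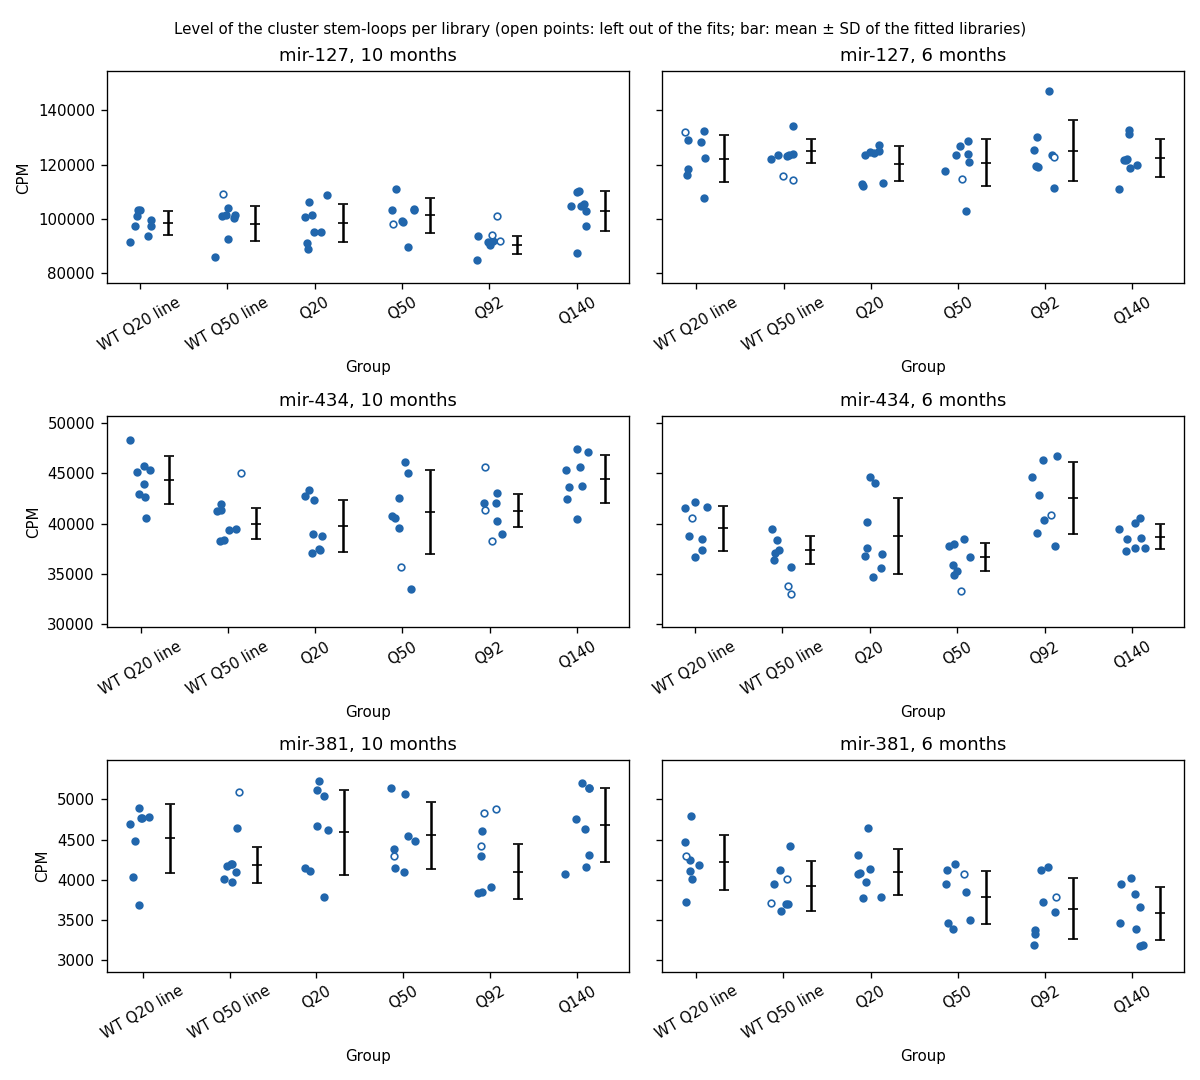
CPM of mir-127, mir-434 and mir-381 in every library by group at 10 months (left) and 6 months (right), with WT groups first and then rising repeat length; axes do not start at 0, bars are mean ± SD of the libraries kept, and open points were left out. mir-127 sits lower at 10 months in all groups, and mir-381 at 6 months sits lowest in Q140 (median 3563 CPM) with ranges that overlap.

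At 10 months no member followed CAG length. In edgeR 0 of 35 passed, beside 0.875% of all 457 stem-loops, and 0 by DESeq2. At an unadjusted p under 0.05 there were 0 members, beside 35 of all 457. The smallest p belonged to mir-487b, with a slope of 0.06 ± 0.04 (edgeR FDR 0.811), and mir-434, with 0.05 ± 0.03 (edgeR FDR 0.811). The slope of mir-381 was 0.03 ± 0.04 at this age (edgeR FDR 0.985), and it had 4728 (3687 to 4898) in WT mice of the Q20 line, 4176 (3976 to 4648) in WT mice of the Q50 line, 4641 (3784 to 5231) in Q20, 4488 (4094 to 5142) in Q50, 3906 (3830.1 to 4605) in Q92 and 4699 (4078 to 5199) in Q140 CPM. With the Z values of the edgeR fits at both ages combined, 0 members passed, beside 2.49% of all 442 stem-loops. At an unadjusted p under 0.05 there were 4 members, beside 85 of all 442. From the DESeq2 fits 0 members passed. mir-381 came nearest with a mean slope of -0.06 ± 0.03 (FDR of the combined Z 0.144), before mir-329 with 0.05 ± 0.02 (FDR of the combined Z 0.159).

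The change of slope between ages was tested directly. In edgeR 0 of 35 members passed, beside 1.48% of all 473 stem-loops, with 3 at an unadjusted p under 0.05, beside 83 of all. In DESeq2 1 member passed, beside 6.55% of all stem-loops. mir-381 had the smallest p, its slope being higher at 10 than at 6 months by 0.18 ± 0.06 per 100 repeats (edgeR FDR 0.0635), followed by mir-431 with 0.15 ± 0.06 (edgeR FDR 0.108). A difference between the ages in how these 2 stem-loops follow CAG length is therefore not shown by this test.

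Single genotypes at 10 months, and Q50 at either age, gave no call. Q140 at 10 months had 0 of 35 in edgeR, beside 0.694% of all 432 stem-loops, and 0 by DESeq2. At an unadjusted p under 0.05 it had 1 member, beside 37 of all 432. Changes of 28 of 35 members were above 0 and of 7 below, where 49.1% of all stem-loops were below 0. mir-434 had 40429, 44530 and 47405 CPM in Q140, against 37054, 41346 and 48356 CPM in controls, a change of 0.09 ± 0.04 (edgeR FDR 0.446), and mir-487b changed by 0.09 ± 0.05 (edgeR FDR 0.701). Q92 at 10 months rested on 5 kept libraries, and 0 members passed in edgeR, beside 0% of all 447 stem-loops, and 0 by DESeq2. Changes of 26 of 35 members were below 0 and of 9 above, where 49% of all stem-loops were below 0. At an unadjusted p under 0.05 there were 3 members, beside 36 of all 447. The nearest were mir-127, with -0.12 ± 0.05 (edgeR FDR 0.497), and mir-431, with -0.15 ± 0.07 (edgeR FDR 0.552). This fit left out 3 of the 4 Q92 females.

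For Q50 at 6 months 0 members passed in edgeR, beside 0% of all 433 stem-loops, and 0 by DESeq2. At an unadjusted p under 0.05 there were 3 members, beside 56 of all 433. Changes of 26 of 35 members were below 0 and of 9 above, where 52.2% of all stem-loops were below 0. mir-431 changed by -0.12 ± 0.05 (edgeR FDR 0.327) and mir-300 by -0.07 ± 0.03 (edgeR FDR 0.377). For Q50 at 10 months 0 passed in edgeR, beside 0% of all 437, and 0 by DESeq2. At an unadjusted p under 0.05 there were 3 members, beside 32 of all 437. Changes of 29 of 35 members were above 0 and of 6 below, where 52.6% of all stem-loops were below 0. Here mir-412 had 0.22 ± 0.10 (edgeR FDR 0.647) and mir-433 0.12 ± 0.05 (edgeR FDR 0.647).

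In edgeR with the main covariates no member passed for sex, for Q20 or for line. Between males and females 0 of 35 members passed in edgeR, beside 1.43% of all 421 stem-loops, with 4 at an unadjusted p under 0.05 and 0 by DESeq2. All changes were small, the median being -0.02, and 30 of 35 were below 0 in males, where 47% of all stem-loops were. mir-409 had -0.08 ± 0.03 (edgeR FDR 0.125) and mir-543 -0.05 ± 0.02 (edgeR FDR 0.222). Q20 against WT mice of its own line gave 0 members in edgeR, beside 0% of all 422 stem-loops, and 0 by DESeq2. At an unadjusted p under 0.05 there were 2 members, beside 33 of all 422. mir-543 had 0.09 ± 0.04 (edgeR FDR 0.538) and mir-434 -0.09 ± 0.04 (edgeR FDR 0.584). WT mice of the Q50 line against WT mice of the Q20 line gave 0 members in edgeR, beside 0.477% of all 419 stem-loops, with 5 at an unadjusted p under 0.05. For sex and for the WT lines, the count of all stem-loops at that unadjusted p is not given here. In DESeq2 3 passed, all lower, beside 2.86% of all 419, and with the replicate block in edgeR 1 passed, beside 1.19%. mir-299a had -0.21 ± 0.06 (edgeR FDR 0.0873) and mir-434 -0.11 ± 0.03 (edgeR FDR 0.0873).

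Although members did not change as a block between ages, libraries with more of one tended to have more of another. Pearson r between the residuals of log2(CPM + 1) from group means had a median of 0.26 over the 595 pairs of members, beside 0.01 over all 88410 pairs of the 421 stem-loops tested. Of the members' pairs 14.1% had r above 0.5, and 2.13% of all pairs did. All pairs include many stem-loops of low count, and r over abundant stem-loops alone was not computed. Whether the difference depends on abundance was therefore not tested. Levels of one library share its depth and composition, so that these are descriptions without a p. Within the Rtl1 side the median was 0.31, within the mir-379 to mir-410 group 0.22, and between the groups 0.28, so that the position groups did not stand apart from each other. The closest pair was mir-341 with mir-410 (r = 0.91), of which the first lies in the Rian intron and the second is the last of the locus, followed by mir-376b with mir-369 (r = 0.87). mir-431 had the highest mean r with the other members (0.41). The members least tied to the rest were mir-494 (-0.05), mir-541 (0.00), mir-411 (0.03) and mir-337 (0.04), and the lowest pair was mir-376b with mir-541 (r = -0.52). Of these, mir-494 and mir-337 had median counts of only 22 and 18.9, and mir-411 had single libraries with low values. Whether their low r comes from this was not tested.

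**Figure D5:**
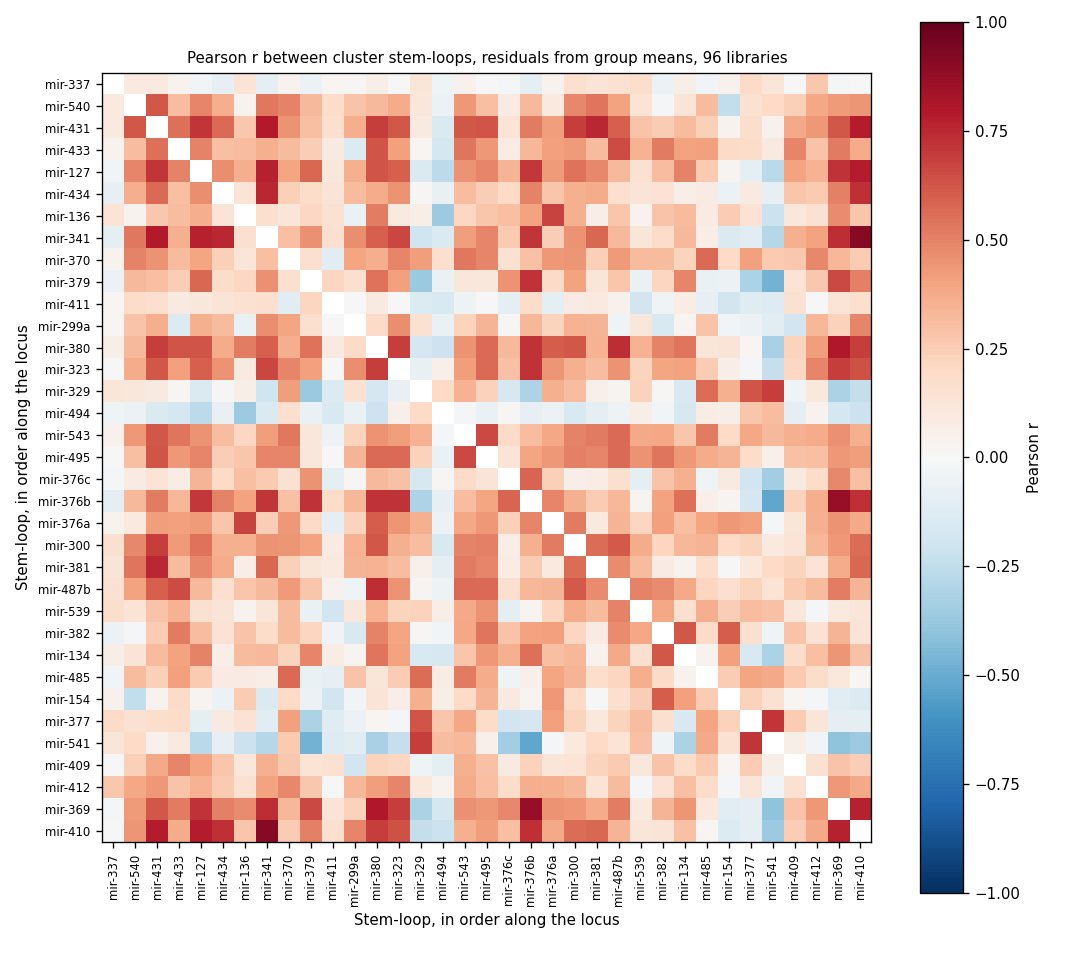
Pearson r between pairs of the 35 stem-loops over 96 libraries, as residuals of log2(CPM + 1) from group means, in order along the locus; red is positive and blue negative. mir-127, mir-431, mir-341, mir-380, mir-369 and mir-410 form red bands across both position groups, while mir-541, mir-494 and mir-411 are pale or blue.

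Of the stem-loops outside the 35, the 3 whose residuals followed the members most were MI0004203 and MI0004553, both with a mean r of 0.40, and MI0000394 with 0.37. The files give them no name. The cluster's summed level was not tied to the co-varying set (r = -0.01) or to the library total (r = 0.09) over the 96 libraries, as residuals from group means. The L field held 20.1% of the variance of this level within an age, and with the L field taken out as well, a step added after the data had been seen, the median r between members was again 0.26. The summed level followed mir-127 (r = 0.93), its largest part.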

How the data were processed

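Small RNA of cortex was measured in 96 libraries. According to the methods of the study, libraries were sequenced as single-end reads, aligned to mm10 with STAR and counted with HTSeq, and the processing notes of the submitters name CASAVA 1.8.2. The authors deposited an estimated count per stem-loop and library, not normalized, and rounded here for count models. The authors also deposited FPKM values, which equal those counts per library total and stem-loop length. No test was run on FPKM. Of the 1187 stem-loops 144 had no count.

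Count models were fitted over all stem-loops in R 4.3.3 with edgeR 4.0.16, by its robust quasi-likelihood test after TMM normalization and filterByExpr, with Benjamini-Hochberg adjustment and a threshold of 0.05. The study used DESeq2, which was run here as version 1.42.0 as an alternative. Covariates were sex and the L field. Libraries with a robust connectivity Z under -5 at their age were left out, 10 in all. CAG length was a number (7 for WT), with slopes per 100 repeats. To combine ages, their signed Z values were summed and divided by the root of the number of ages. A normal p followed from this sum, and the slopes were averaged. The SE given with an edgeR change or slope is its size divided by the root of its F statistic. Values per group are CPM of the libraries kept. Correlations used CPM of the library total with 1 added. No pair of libraries of one group agreed within sampling noise (chi-square per degree of freedom of at least 26.6 over 336 pairs).

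On data simulated for Q140 against controls at 6 months, over 430 stem-loops, the fit recovered 67.6% of changes of 0.3 on the log2 scale. There 68 stem-loops were changed by 0.3, 66 by 0.6 and 66 by 1, while the real fit called 9 of 431. Changes under 0.3 were not simulated, so that the share recovered does not carry over to the real fits. Members and lists were chosen with earlier results of these data known. Each member has its level. The 3 highest and 3 lowest by FPKM, up to 4 calls per direction by FDR and otherwise the 2 smallest p were described. Libraries are separate mice. Alternatives were other normalizations, filters, library choices, controls and covariates. Other stem-loops of the locus were not analysed here.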

Additional observations from a re-analysis of the deposited data

Results flagged for a closer look

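In a group of 8 libraries, the highest or lowest library was set against the spread of the others by Dixon's criterion, which chance alone meets in about 1 of 20 groups. Of the 12 groups, 1 had such a library for the share of the cluster, a Q92 female at 6 months with 23.6% of its counts in the 35 stem-loops. The same female had the highest mir-431 of its group, with 467 CPM.

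Among the 10 members described per library, 12 of 120 groups had one. mir-411 gave 6 of them, all low. These were a Q92 male with 3234 CPM and a Q20 male with 5279 CPM at 6 months, and at 10 months a Q140 male with 3987 CPM, a Q92 male with 7359 CPM, a Q50 male with 6126 CPM and a Q20 female with 2817 CPM. The next libraries of those groups had from 8235 to 10175 CPM. The Q92 male at 6 months and the Q50 male were among the libraries left out of the fits.

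The others were a Q50 male at 6 months with 8.18 CPM of mir-539, a WT female of the Q20 line at 10 months with 6.08 CPM of mir-337, a WT female of the Q50 line at 6 months with 1683 CPM of mir-341, a Q50 female at 10 months with 388 CPM of mir-329 and a WT female of the Q50 line at 10 months with 359.9 CPM of mir-329. Over all 35 members, 46 of 420 groups (11%) met the criterion.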

How the results depend on the processing

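Counts of members that passed (and the median r within the cluster) stayed near the reported value, within 1.5 times for counts, in 151 alternatives and moved further in 24. In the others, for expanded knock-in mice between ages 2 members passed within L1. For the CAG slope at 6 months, 4 became 0 with the co-varying set as covariate (chosen after seeing the data), 1 within L1, 0 within L2 and 2 without the L field. For the change of slope with age, 0 became 1 with DESeq2, with WT only as controls and at a mean of 10 CPM or more, and 2 with all libraries kept, while the share of all stem-loops called, 1.48% as reported, was 6.55%, 10.9%, 5.5% and 7.13% there. For Q140 at 6 months, 1 became 2 with DESeq2 and 0 with WT only as controls, with the co-varying set, within L1 and within L2. For Q92 at 6 months, 2 became 1 with WT only as controls, with the co-varying set, without the low-count filter, within L1 and without the L field, 0 within L2 and 5 with all libraries kept. For WT mice of the Q50 line against those of the Q20 line, 0 became 3 with DESeq2. In Q140 at 6 months that share, 2.09% as reported, lay between 0.232% and 7.19% in the settings named, and in Q92 at 6 months, 13% as reported, between 1.14% and 18.7%. The cause was not tested. No call changed sign, and 403 repeats of a call passed and 65 did not.

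Replicate numbers did not pair the libraries (median r of -0.017, with 30.8% of 240 pairs over 0.1). With the replicate block 1 member passed for Q92 at 6 months and 1 for the WT lines. Leaving out each kept Q92 library at 10 months gave 0 members each time. The median r within the cluster was 0.26, with 0.18 at 10 months, 0.31 at 6 months, 0.25 without the screened-out libraries, 0.26 with the L field removed (chosen after seeing the data) and 0.36 with CPM of the total outside the cluster. Low counts limit mir-337 and mir-494, and the 5 kept Q92 libraries limit that group at 10 months. Values within L3 could not be had for ages, nor within L1 for controls.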
